A study of Rattus norvegicus with 12 samples.

Results

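The serotonin receptor genes Htr1a, Htr1b, Htr1d, Htr1f, Htr2a, Htr2c, Htr3a, Htr4, Htr5b and Htr7 were described in rat thalamus and rostral ventral medulla (RVM). The 10 genes were found by symbol, each in a single row, among the 34525 genes of the deposited expression table. Messenger RNA levels came from 12 RNA sequencing libraries of a series on chronic orofacial pain, with 3 libraries in each of 4 groups: thalamus CFA, thalamus saline, RVM CFA and RVM saline. CFA is the abbreviation on the labels, which in rodent work on pain most often means complete Freund's adjuvant, injected to cause long-lasting inflammation. The controls are labelled 0.9% NS, read here as normal saline. The labels give no strain, sex, age, dose, injection site or time after treatment. They do not state whether each library is a separate animal, or whether thalamus and RVM libraries come from the same rats. The p-values therefore speak only of the spread among these libraries, part of which may be technical.

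Serotonin is made in the brain by raphe neurons of the brainstem. Some of these lie in the RVM and send axons to the spinal cord and the trigeminal nuclei, where serotonin can dampen or enhance pain signals, and others innervate the thalamus, which relays sensory signals to the cortex. Apart from Htr3a, which encodes a subunit of a cation channel, the genes encode receptors that act through G proteins. Receptors of the Htr1 group act through Gi/o proteins, which lower cyclic AMP and open GIRK potassium channels, those of the Htr2 group through Gq and phospholipase C, and those encoded by Htr4 and Htr7 through Gs, which raises cyclic AMP. Coupling of the receptor encoded by Htr5b is less settled. In humans its counterpart does not encode a working receptor.

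Levels are given as FPKM, fragments per kilobase of gene and per 1 M of the library's divisor, as deposited. This scales for the listed gene length, which was 1125 bases for Htr1d and 4619 bases for Htr2a. Shares and orders of genes depend on how well the listed lengths match the transcripts present, which was not tested. Libraries held 14.94 to 19.24 M reads assigned to genes, recovered from the FPKM values and gene lengths. The labelled regions were checked with marker genes. The summed level of 8 hindbrain markers was 0.532 to 1.17 FPKM in the thalamus libraries and 125 to 158 FPKM in the RVM libraries. The summed level of 10 thalamic neuron markers was 152 to 1033 FPKM in thalamus and 85.6 to 109 FPKM in RVM. Of these 10, Slc17a6 alone was at 46.4 to 69.3 FPKM in RVM and at 38.1 to 228 FPKM in thalamus. Retina markers summed to at most 1.87 FPKM in any library, although the labels' protocol text speaks of retinas. The thalamus libraries were not uniform. In the order of libraries 1, 2 and 3, the choroid plexus gene Ttr was at 9934, 2361 and 5.50 FPKM in thalamus CFA and at 18.0, 2.31 and 4.91 FPKM in thalamus saline. The habenula gene Gpr151 was at 33.8, 30.2 and 22.4 FPKM in thalamus CFA and at 28.8, 1.34 and 27.6 FPKM in thalamus saline. Microglia markers summed to 680 to 934 FPKM in thalamus CFA and to 152 to 174 FPKM in thalamus saline, and to 284 to 946 FPKM in RVM CFA and 151 to 195 FPKM in RVM saline. These are bulk tissue samples, in which fewer cells of a type and less RNA per cell cannot be told apart.

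Htr2c was the most abundant of the 10 genes in all 12 libraries, and in RVM Htr5b came second. Htr2c encodes the receptor that is best known from the choroid plexus and whose transcript is edited by adenosine deaminases. Its row lies on chromosome X from 118084890 to 118318039, as the table lists it, and the sources used here give no genome build for such coordinates. Htr2c was at 67.0, 74.8 and 60.8 FPKM in thalamus CFA, 70.6, 58.4 and 54.5 FPKM in thalamus saline, 45.6, 52.3 and 48.1 FPKM in RVM CFA and 49.1, 50.7 and 53.2 FPKM in RVM saline. Those levels rest on 3107 to 6171 reads a library, against 5 reads in all for the 7 small RNA entries inside the gene. Every thalamus library was above every RVM library.

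As a share of the summed FPKM of the 10 genes, Htr2c made up 66.2 to 77.6% in the thalamus libraries and 41.3 to 52.3% in the RVM libraries. For Htr5b that share was 0.0373 to 4.88% in thalamus and 21.1 to 39.4% in RVM. Together these genes held 68.8 to 79.0% of the sum in thalamus and 73.4 to 80.7% in RVM, so the other 8 genes shared the rest. The sum itself was 84.4 to 104 FPKM in thalamus CFA, 75.1 to 107 FPKM in thalamus saline, 87.1 to 101 FPKM in RVM CFA and 105 to 129 FPKM in RVM saline.

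**Figure D1:**
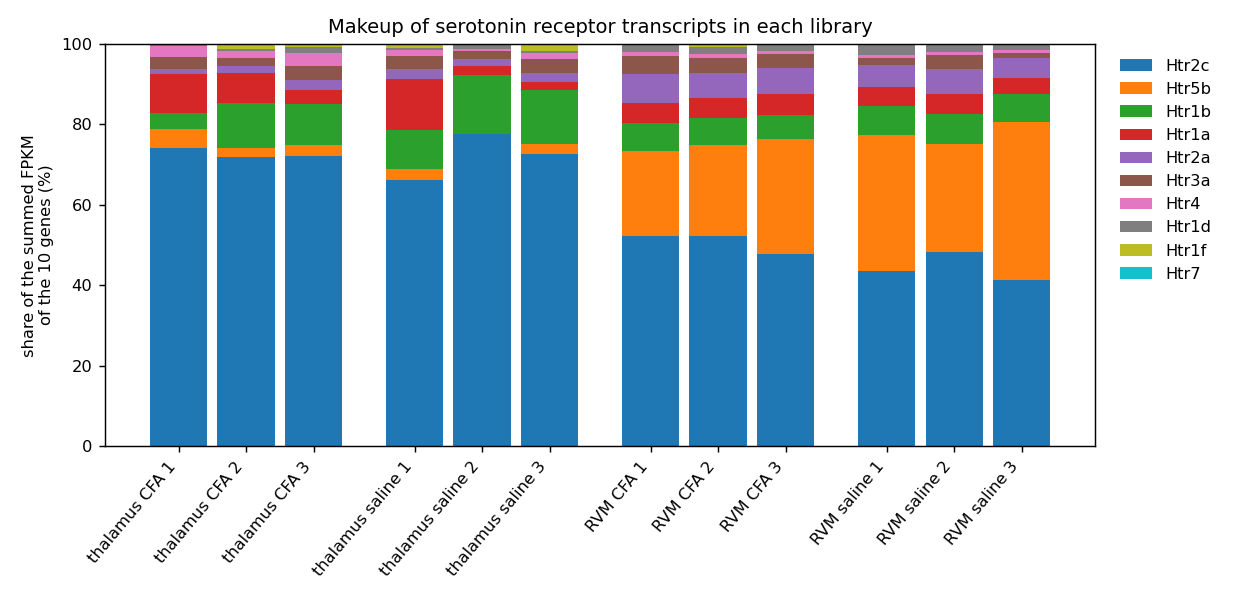
Share of each gene in the summed FPKM of the 10 serotonin receptor genes (percent, vertical axis) in each of the 12 libraries (horizontal axis). The Htr2c part spans 66.2 to 77.6% in thalamus and 41.3 to 52.3% in RVM, and the Htr5b part is at most 4.88% in thalamus and at least 21.1% in RVM.

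Below Htr2c, the order by mean level differed between the regions. In thalamus CFA it was Htr1b, Htr1a, Htr5b, Htr3a, Htr4, Htr2a, Htr1f, Htr1d and Htr7, and in thalamus saline Htr1b, Htr1a, Htr3a, Htr2a, Htr5b, Htr4, Htr1f, Htr1d and Htr7. In both thalamus groups each gene from Htr1b down to Htr1f overlapped the next in its library values, and only Htr2c and Htr7 stood clear of their neighbours. In RVM CFA the order below Htr2c was Htr5b, Htr2a, Htr1b, Htr1a, Htr3a, Htr1d, Htr4, Htr1f and Htr7, where Htr2a and Htr1b alone overlapped. In RVM saline it was Htr5b, Htr1b, Htr2a, Htr1a, Htr3a, Htr1d, Htr4, Htr1f and Htr7. There Htr2c overlapped Htr5b, and Htr3a overlapped Htr1d.

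**Figure D2:**
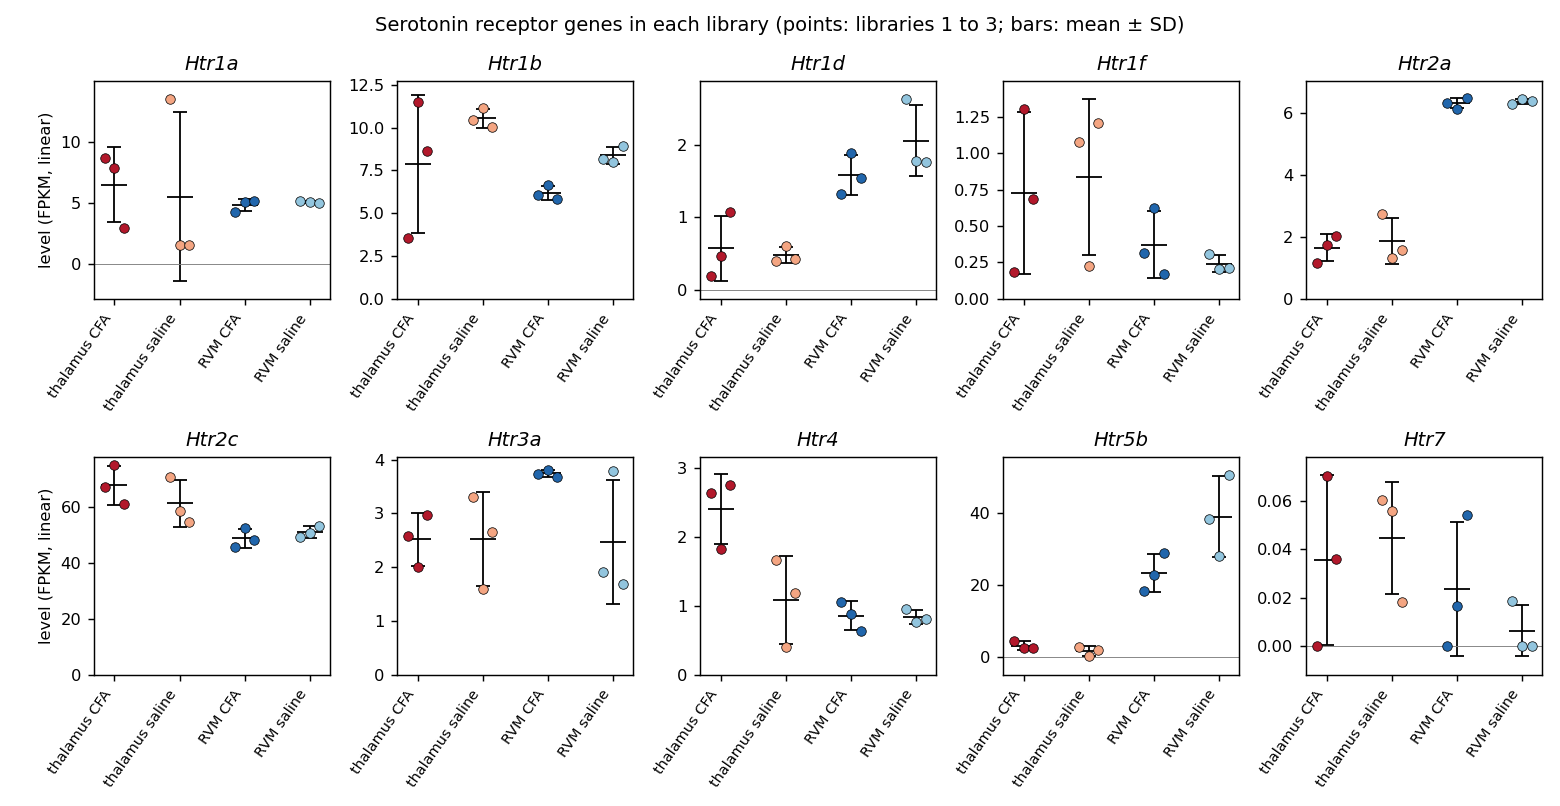
FPKM of the 10 serotonin receptor genes on linear axes, with 1 panel a gene; each point is a library of thalamus CFA, thalamus saline, RVM CFA or RVM saline, and bars are mean ± SD (n = 3). Htr5b, Htr2a and Htr1d are higher in every RVM library than in any thalamus library, Htr2c is lower in every RVM library, and thalamus values of Htr1a are spread from 1.57 to 13.5 FPKM.

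The regions were compared on log2(FPKM + 1) with limma, once between the saline groups and once between the CFA groups, with Benjamini-Hochberg adjustment over all genes tested, which were those averaging 1 FPKM or more. A gene was called at an adjusted p below 0.05. Log2 differences are thalamus minus RVM, and with 1 FPKM added they understate the difference of low genes. Between the CFA groups, 4 of the 8 receptor genes tested were called, Htr2c and Htr4 higher in thalamus and Htr2a and Htr5b lower in thalamus, with 33% of all 14787 genes called (14.9% higher, 18.1% lower). Between the saline groups, 4 of 7 were called, Htr1b higher in thalamus and Htr1d, Htr2a and Htr5b lower in thalamus. Of all 14396 genes tested there, 45.3% were called (22.6% higher, 22.7% lower). All thalamus CFA values were above all RVM CFA values for 2 receptor genes (24.4% of all genes tested) and below them for 4 (27.3%). Between the saline groups this held for 2 above (28.9%) and 3 below (29.9%). The receptor counts were not tested against these shares and are described here gene by gene. The 2 comparisons share no libraries, and Htr2a and Htr5b were called in both.

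Among all called genes, 45.2% were higher in thalamus between the CFA groups and 49.8% between the saline groups. With libraries scaled to equal FPKM totals these shares were 83.5% and 69.5% in the same order, and with limma-voom on the recovered reads 72.1% and 59.4%. The 4 receptor calls between the CFA groups were the same genes under both of these settings, as were the 4 between the saline groups, where equal totals added Htr2c.

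Htr5b showed the largest log2 difference between the regions among the receptor genes tested. In rodents its transcript is known from the habenula, the inferior olive and raphe neurons. It lies on chromosome 13 from 37479758 to 37492680 in the table. Htr5b was at 4.41, 2.39 and 2.44 FPKM in thalamus CFA, 2.77, 0.0281 and 1.91 FPKM in thalamus saline, 18.4, 22.7 and 28.8 FPKM in RVM CFA and 38.3, 28.1 and 50.7 FPKM in RVM saline. All 6 RVM libraries were above all 6 thalamus libraries. The lowest thalamus value, 1 read in library 2 of thalamus saline, stands in the library with the lowest Gpr151, and the summed level of 7 habenula markers was 76.6 to 113 FPKM in thalamus CFA, with 91.4, 16.5 and 90.3 FPKM in thalamus saline libraries 1, 2 and 3. Hypothalamus markers summed to 105 FPKM in that library, mostly from Oxt (80.4 FPKM) and Avp (21.4 FPKM), and to 0.923 to 20.1 FPKM in the other thalamus libraries. The part of these markers in its Htr5b value was not tested. The mean was 7.56-fold lower in thalamus CFA than in RVM CFA (log2 difference -2.59 ± 0.24 SE, limma adjusted p = 0.00114) and 24.9-fold lower in thalamus saline than in RVM saline (log2 difference -4.12 ± 0.49 SE, limma adjusted p = 0.00109). Without thalamus saline library 2 the log2 difference between the saline groups was -3.56.

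Htr5a, which is not among the 10 genes but encodes the receptor most closely related to that of Htr5b, differed between the regions in the other direction. Htr5a was at 2.88, 3.97 and 4.34 FPKM in thalamus CFA, 3.86, 5.38 and 4.66 FPKM in thalamus saline, 1.05, 1.20 and 1.07 FPKM in RVM CFA and 2.15, 1.39 and 2.28 FPKM in RVM saline. It was higher in thalamus between the CFA groups (log2 difference 1.15 ± 0.16 SE, limma adjusted p = 0.0039) and between the saline groups (0.94 ± 0.17 SE, limma adjusted p = 0.00518). Because this pair of related genes had opposite regional differences, their promoter sequences are shown side by side, from 250 bases before to 50 bases after the start of the RefSeq gene. They come from RefSeq in the GRCr8 build, which held a promoter entry for 6 of the 10 genes, and both are written 5′ to 3′ on the minus strand. The Htr5b window is chr13:35252537-35252836 and the Htr5a window is chr4:8188436-8188735. The deposited expression table instead lists Htr5a on the plus strand of chromosome 4, from 199916 to 209599. Whether that entry and the RefSeq gene share a start was not tested. Capitals mark the letters CCAAT read on either strand, here as ATTGG.
Htr5b: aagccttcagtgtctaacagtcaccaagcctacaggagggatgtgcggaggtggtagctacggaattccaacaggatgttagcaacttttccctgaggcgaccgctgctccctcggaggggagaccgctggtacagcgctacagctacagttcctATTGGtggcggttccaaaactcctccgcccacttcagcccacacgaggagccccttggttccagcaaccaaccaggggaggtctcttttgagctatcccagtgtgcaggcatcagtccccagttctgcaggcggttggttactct
Htr5a: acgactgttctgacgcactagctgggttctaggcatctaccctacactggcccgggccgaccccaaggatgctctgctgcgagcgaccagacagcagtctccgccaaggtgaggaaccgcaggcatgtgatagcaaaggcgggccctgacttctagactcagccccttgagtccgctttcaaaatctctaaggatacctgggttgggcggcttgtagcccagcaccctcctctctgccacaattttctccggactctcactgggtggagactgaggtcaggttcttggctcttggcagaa
The Htr5b window held 1 such match, starting at base 156, and the Htr5a window held 0. Of 33469 RefSeq rat promoters of this length, 37.5% hold CCAAT or ATTGG, so a match is common. TATAAA or TTTATA, which 14.2% of the promoters hold, was in neither. The G and C content was 57% with 11 CpG dinucleotides for Htr5b and 58% with 12 for Htr5a, where the medians over all promoters were 51.7% and 7. A match is a string of letters and not a shown binding site.

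Htr2a encodes the Gq-coupled receptor through which psychedelic drugs act and lies on chromosome 15 from 56666012 to 56735382 in the table. It was at 1.17, 1.76 and 2.03 FPKM in thalamus CFA, 2.73, 1.31 and 1.58 FPKM in thalamus saline, 6.34, 6.15 and 6.50 FPKM in RVM CFA and 6.28, 6.46 and 6.40 FPKM in RVM saline. The RVM libraries were almost alike and all above the thalamus libraries. Means were 3.82-fold lower in thalamus CFA than in RVM CFA (log2 difference -1.48 ± 0.15 SE, limma adjusted p = 0.00155) and 3.40-fold lower in thalamus saline than in RVM saline (-1.39 ± 0.19 SE, limma adjusted p = 0.00165). The calls of Htr2a and Htr5b in both regional comparisons held in every alternative setting, including each library left out in turn.

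**Figure D3:**
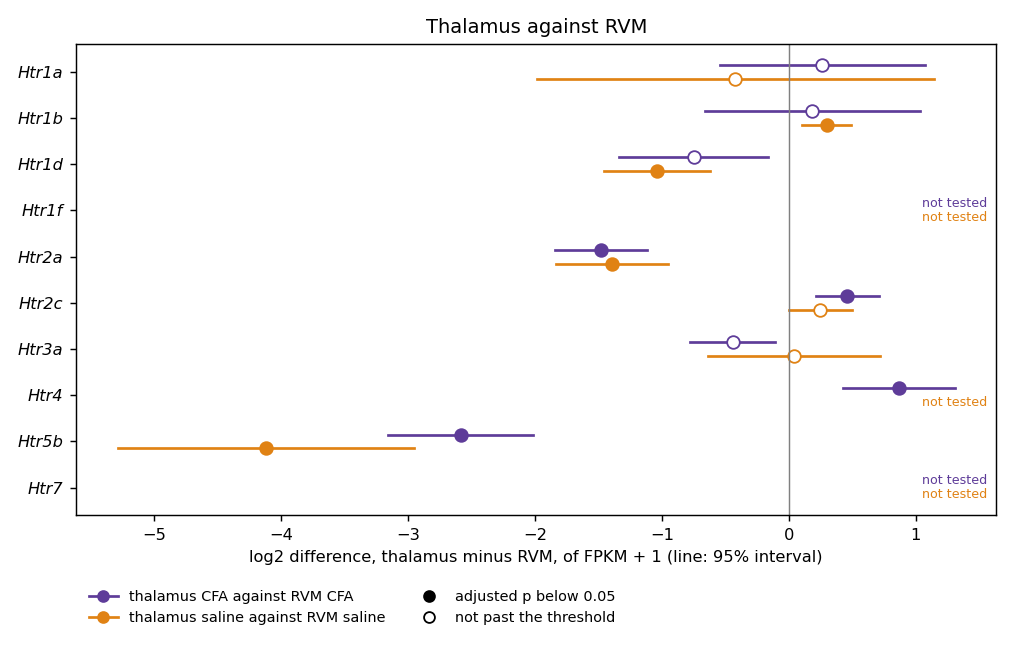
Log2 difference of FPKM + 1, thalamus minus RVM (horizontal axis), for the 10 genes (vertical axis), between the CFA groups and between the saline groups, with 95% intervals; filled points have a limma adjusted p below 0.05. Htr5b lies farthest from 0, at -2.59 between the CFA groups and -4.12 between the saline groups, and Htr2a lies at -1.48 and -1.39.

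Of the Gi/o-coupled receptors, Htr1d and Htr1b encode close relatives that sit on axon terminals and are the targets of the triptan drugs against migraine. Each was called in only the saline comparison, in opposite directions. Htr1d, on chromosome 5 from 154800226 to 154801350, was at 0.187, 0.471 and 1.07 FPKM in thalamus CFA, 0.402, 0.609 and 0.430 FPKM in thalamus saline, 1.33, 1.89 and 1.55 FPKM in RVM CFA and 2.63, 1.78 and 1.77 FPKM in RVM saline. All thalamus values lay below all RVM values. Between the CFA groups the mean was 2.76-fold lower in thalamus (log2 difference -0.75 ± 0.25 SE, limma adjusted p = 0.0579), which missed the threshold, and between the saline groups 4.29-fold lower (-1.04 ± 0.17 SE, limma adjusted p = 0.00393). Htr1d holds 4 to 48 reads a library, and without RVM saline library 1 its mean was under 1 FPKM and it was not tested.

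Htr1b, on chromosome 8 from 89129453 to 89130991, was at 3.56, 11.5 and 8.61 FPKM in thalamus CFA, 10.5, 11.1 and 10.01 FPKM in thalamus saline, 6.05, 6.65 and 5.85 FPKM in RVM CFA and 8.19, 8.01 and 8.94 FPKM in RVM saline. Thalamus saline was above RVM saline in all libraries (log2 difference 0.30 ± 0.08 SE, limma adjusted p = 0.0235), while the CFA groups overlapped (0.19 ± 0.35 SE, limma adjusted p = 0.709). The call between the saline groups was lost without thalamus saline library 2 (adjusted p = 0.0676), RVM saline library 1 (0.079) or RVM saline library 2 (0.0834), and in a single model of all 12 libraries (0.409). Without thalamus CFA library 1, which had the lowest value, Htr1b was called between the CFA groups too, at a log2 difference of 0.61 (limma adjusted p = 0.0211).

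Htr1a encodes the receptor that brakes the firing of serotonergic neurons and that is also abundant in hippocampus and cortex. It lies on chromosome 2 from 36246628 to 36247896 in the table. Htr1a was at 8.71, 7.88 and 2.99 FPKM in thalamus CFA, 13.5, 1.57 and 1.57 FPKM in thalamus saline, 4.28, 5.06 and 5.20 FPKM in RVM CFA and 5.21, 5.14 and 5.04 FPKM in RVM saline. The RVM libraries were alike, whereas the thalamus libraries split into high and low values within each group, and neither regional comparison was called (log2 difference 0.26 ± 0.34 SE between the CFA groups, limma adjusted p = 0.573, and -0.42 ± 0.65 SE between the saline groups, limma adjusted p = 0.626). The 3 high thalamus libraries were CFA 1, CFA 2 and saline 1. The 8 cortex and hippocampus markers summed to 361, 39.8 and 26.2 FPKM in thalamus CFA and to 153, 28.4 and 61.9 FPKM in thalamus saline. The part of these markers in the Htr1a values was not tested. Single libraries decided the comparison: without thalamus saline library 1 Htr1a was called lower in thalamus saline than in RVM saline (log2 difference -1.25, limma adjusted p = 0.000323), and without thalamus CFA library 3 it was called higher in thalamus CFA than in RVM CFA (0.67, limma adjusted p = 0.0151).

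Htr1f encodes the target of lasmiditan, a drug against migraine, and lies on chromosome 11 from 1982113 to 1983513. It was at 0.188, 1.30 and 0.688 FPKM in thalamus CFA, 1.08, 0.222 and 1.21 FPKM in thalamus saline, 0.317, 0.622 and 0.171 FPKM in RVM CFA and 0.309, 0.205 and 0.215 FPKM in RVM saline. With 4 to 31 reads a library it stayed under the level needed for a test in all comparisons, and its groups overlapped in each.

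Htr2c was higher in thalamus CFA than in RVM CFA (log2 difference 0.46 ± 0.10 SE, limma adjusted p = 0.0168). Between the saline groups the difference had the same sign but missed the threshold (0.25 ± 0.10 SE, limma adjusted p = 0.0929). Ttr, which like Htr2c is abundant in choroid plexus, was at 9934, 2361 and 5.50 FPKM in thalamus CFA libraries 1, 2 and 3, where Htr2c was at 67.0, 74.8 and 60.8 FPKM. The 10 choroid plexus markers summed to 15.4 to 10320 FPKM in thalamus CFA, 5.62 to 28.5 FPKM in thalamus saline, 2.99 to 8.86 FPKM in RVM CFA and 2.94 to 5.28 FPKM in RVM saline. Their part in the call was not tested. The call was lost without RVM CFA library 1 (limma adjusted p = 0.0672) or library 3 (0.0623). Without thalamus CFA libraries 1 and 2 the log2 difference was 0.32 (limma adjusted p = 0.102), in a fit with 1 thalamus CFA library left, assumed to vary like the RVM CFA libraries, so a lost call says little there.

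The Gs-coupled receptor gene Htr4, on chromosome 18 from 57654290 to 57819698, was the other gene called higher in thalamus CFA. It was at 2.64, 1.83 and 2.76 FPKM in thalamus CFA, 1.67, 0.396 and 1.19 FPKM in thalamus saline, 1.06, 0.884 and 0.635 FPKM in RVM CFA and 0.959, 0.759 and 0.809 FPKM in RVM saline. The thalamus CFA libraries stood above all others. The mean was 2.81-fold higher in thalamus CFA than in RVM CFA (log2 difference 0.87 ± 0.18 SE, limma adjusted p = 0.0139), a call lost without RVM CFA library 3 (0.0516). Between the saline groups the gene was under the level needed for a test. Its lowest value stood in thalamus saline library 2, the thalamus library with the lowest habenula markers. These summed to 91.4, 16.5 and 90.3 FPKM in thalamus saline libraries 1, 2 and 3. The part of these markers in the Htr4 values was not tested.

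The channel subunit gene Htr3a, on chromosome 8 from 53211438 to 53223804, was at 2.58, 1.999 and 2.98 FPKM in thalamus CFA, 3.31, 1.59 and 2.66 FPKM in thalamus saline, 3.74, 3.81 and 3.69 FPKM in RVM CFA and 1.91, 3.80 and 1.69 FPKM in RVM saline. Thalamus CFA lay below RVM CFA in all libraries but missed the threshold (log2 difference -0.44 ± 0.14 SE, limma adjusted p = 0.0525), and the saline groups overlapped (0.04 ± 0.28 SE, limma adjusted p = 0.921). Without thalamus CFA library 3, Htr3a and Htr1d were both called lower in thalamus CFA than in RVM CFA (adjusted p = 0.0385 and 0.0233). Htr3b, whose product joins that of Htr3a in mixed channels, was at 0 in 11 libraries and had 1 read in thalamus saline library 1.

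Htr7, on chromosome 1 from 254547620 to 254671778, encodes a Gs-coupled receptor and had almost no reads in these libraries. It was at 0, 0.0708 and 0.0362 FPKM in thalamus CFA, 0.0605, 0.0562 and 0.0182 FPKM in thalamus saline, 0, 0.0164 and 0.0541 FPKM in RVM CFA and 0.0186, 0 and 0 FPKM in RVM saline. These values stand for 19 reads in all, and a count of 0 allows up to 3 reads, 0.0453 to 0.0647 FPKM depending on the library, so no difference was detectable at this depth. These limits cover counting error only. The endothelial gene Cldn5 was likewise at 0 FPKM in every library, while Flt1, another endothelial gene, was at 9.57 to 14.3 FPKM. A row near 0 is therefore not shown to mean an absent transcript, and whether such rows miss reads was not tested. Of the other receptor genes, Htr6, a further Gs-coupled receptor, was at 0.201 to 0.971 FPKM in thalamus and 0.0906 to 0.631 FPKM in RVM, and Htr2b at 0 to 0.400 FPKM in thalamus and 0 to 0.450 FPKM in RVM. Htr2b overlaps Psmd1 on the opposite strand, which had 39071 reads, and counting by strand is not stated, so its few reads are uncertain.

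Treatment was compared within each region with the same test, as CFA minus saline. None of the receptor genes was called in either region. In thalamus 0 of the 7 tested were called by limma, where 4.11% of all 14722 genes were called (3.84% higher, 0.272% lower, or 565 and 40 genes, against 1100 and 832 in a single model of all 12 libraries), 1 of the 7 had an unadjusted p below 0.05 (21.4% of all genes), and limma-voom called 0. In RVM 0 of the 7 tested were called by limma, where 0% of all 14289 genes were called, 2 of the 7 had an unadjusted p below 0.05 (14.2% of all genes, or 2030), and limma-voom called 0 receptor genes and 0 genes in all. The median log2 change was 0.14 over the 7 receptor genes and -0.08 over all genes in thalamus, and -0.07 and -0.02 in RVM. The median of all genes was 0.07 in thalamus with equal FPKM totals and 0.09 with limma-voom, and 0.02 in RVM with limma-voom, so small changes have no firm sign.

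In thalamus, Htr4 was the only one of the 10 genes whose groups did not overlap, with CFA above saline, as for 12.2% of all genes tested (16.8% had CFA below saline). Its mean was 2.41 ± 0.51 FPKM in thalamus CFA and 1.09 ± 0.64 FPKM in thalamus saline (SD, n = 3 each), a ratio of 2.22. On the log2 scale the change was 0.75 with a 95% interval of 0.08 to 1.41 (limma adjusted p = 0.204), and without thalamus saline library 2 it was 0.48. Htr5b had a log2 change of 0.83 ± 0.50 SE (limma adjusted p = 0.359), which was 0.27 without that library. Estimates were 0.61 ± 0.74 SE for Htr1a (limma adjusted p = 0.643) and -0.50 ± 0.36 SE for Htr1b (limma adjusted p = 0.427), each with a library far from the other 2 of its group, and Htr1b was at -0.07 without CFA library 1. The estimates for Htr2c (0.14 ± 0.13 SE), Htr3a (0.02 ± 0.23 SE) and Htr2a (-0.10 ± 0.24 SE) were of the size of their errors, with limma adjusted p of 0.529 to 0.967. Htr1d, Htr1f and Htr7 were under the level needed for a test, and their groups overlapped.

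Tissue markers were also compared between these thalamus groups. Summed over 10 thalamic neuron markers, levels were 152 to 571 FPKM in thalamus CFA and 425 to 1033 FPKM in thalamus saline, and over 8 general neuron markers 1376 to 1994 FPKM in thalamus CFA and 1979 to 2876 FPKM in thalamus saline. None of these neuron markers was called by limma in this comparison, though the estimate of each was negative. Of the microglia markers, 6 of 7 were called higher in CFA, where 3.84% of all genes tested were. The part of these neuron and microglia markers in the receptor values was not tested.

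**Figure D4:**
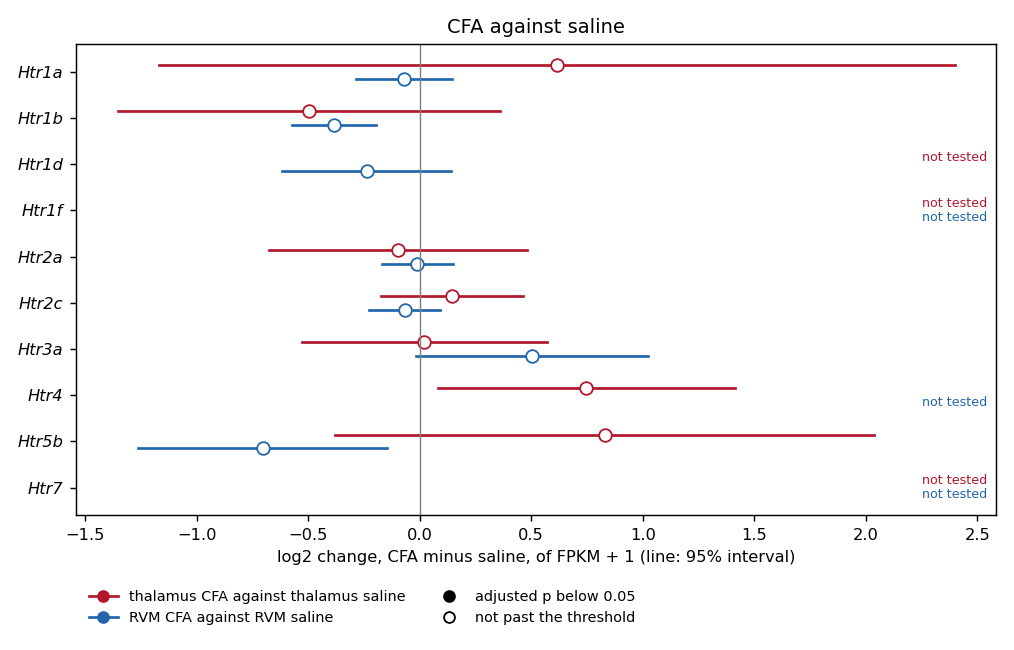
Log2 change of FPKM + 1, CFA minus saline (horizontal axis), for the 10 genes (vertical axis) in thalamus and in RVM, with 95% intervals; open points have a limma adjusted p of 0.05 or more and genes under a mean of 1 FPKM are marked as not tested. All points are open, and the intervals that exclude 0 are those of Htr4 in thalamus and of Htr1b and Htr5b in RVM.

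In RVM the smallest p belonged to Htr1b. Its mean was 6.18 ± 0.41 FPKM in RVM CFA and 8.38 ± 0.49 FPKM in RVM saline (SD, n = 3 each), a ratio of 0.738, and the 3 CFA libraries lay below the 3 saline libraries, as for 12.5% of all genes tested (7.27% had CFA above saline). The log2 change was -0.38 ± 0.08 SE (limma adjusted p = 0.242), and it stayed between -0.43 and -0.34 when each library was left out in turn. Htr5a was the other receptor gene whose RVM CFA values were all below those of RVM saline (log2 change -0.47 ± 0.16 SE, limma adjusted p = 0.283).

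Htr5b averaged 23.3 ± 5.2 FPKM in RVM CFA and 39.0 ± 11.3 FPKM in RVM saline (SD, n = 3 each), a ratio of 0.597, with CFA library 3 just above saline library 2. The log2 change was -0.70 with a 95% interval of -1.26 to -0.14 (limma adjusted p = 0.279). Htr3a had a log2 change of 0.50 ± 0.22 SE (limma adjusted p = 0.361), where the 3 CFA libraries were alike and saline library 2 was at their level. Htr1d (-0.24 ± 0.16 SE), Htr1a (-0.07 ± 0.09 SE), Htr2c (-0.07 ± 0.07 SE) and Htr2a (-0.01 ± 0.07 SE) had limma adjusted p of 0.56 to 0.967. For Htr2a the 95% interval was -0.17 to 0.15, and for Htr2c -0.23 to 0.09. Htr1f, Htr4 and Htr7 were under the level needed for a test, and their groups overlapped. Beside these values, 5 oligodendrocyte markers summed to 15600 to 16359 FPKM in RVM CFA and 21063 to 23776 FPKM in RVM saline, with 0 of 5 called, and their part in the receptor values was not tested.

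Some markers of serotonergic neurons followed the order of Htr5b across the RVM libraries. In the order of libraries 1, 2 and 3, Tph2, which encodes the enzyme that starts serotonin synthesis, was at 36.3, 40.4 and 51.3 FPKM in RVM CFA and 57.4, 45.3 and 66.2 FPKM in RVM saline. All 5 serotonergic markers (Tph2, Slc6a4, Fev, Lmx1b and Slc18a2) were detected in RVM, and their sum was 69.9, 81.1 and 101 FPKM in RVM CFA and 108, 89.7 and 127 FPKM in RVM saline. Ranked over the 6 libraries, Tph2 and Slc18a2 each gave the same order as Htr5b in 6 of 6 places. Slc6a4 and Fev did so in 4 and Lmx1b in 1. The sum matched in 6 of 6 too, but it contains Tph2 and Slc18a2 and is not a separate agreement. How many of all genes give this order was not determined. Htr5b per unit of the marker sum was 0.263 to 0.286 in RVM CFA and 0.313 to 0.400 in RVM saline (ratio of means 0.776). The groups did not overlap, which by itself gives an exact two-sided permutation p of 0.1, the smallest that 3 against 3 libraries allow. How many other genes would not overlap when divided by this sum was not tested. Undivided, 12.5% of all genes tested had RVM CFA wholly below RVM saline.

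Pou4f1, a transcription factor gene known from habenula and inferior olive neurons and singled out with its values known, was at 11.9, 15.02 and 21.2 FPKM in RVM CFA and 23.9, 20.1 and 35.8 FPKM in RVM saline. It too ranked the 6 RVM libraries in the order of Htr5b, and the share of all genes that do so was not determined. Htr5b per unit of Pou4f1 was 1.36 to 1.54 in RVM CFA and 1.39 to 1.60 in RVM saline, with means of 1.47 ± 0.10 and 1.47 ± 0.11 (SD, n = 3 each). This ratio is a description, since Pou4f1 was chosen for following Htr5b. The 6 other habenula markers summed to 7.04 to 10.6 FPKM in RVM CFA and 7.32 to 9.98 FPKM in RVM saline, and Gpr151 was at 0 to 0.258 FPKM in RVM. The part of either marker in the lower Htr5b values of RVM CFA was not tested.

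**Figure D5:**
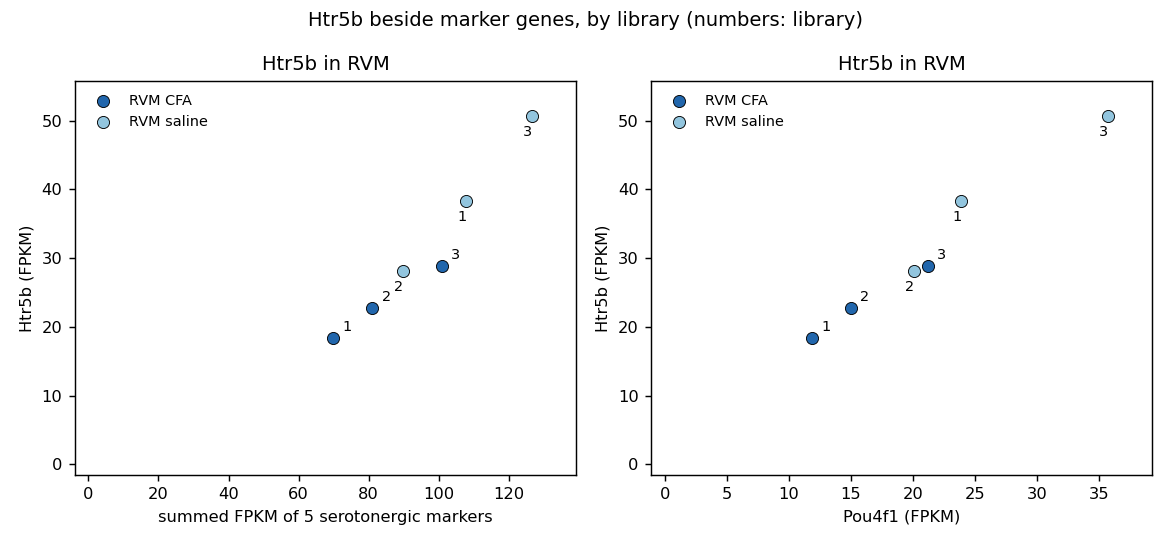
Htr5b (FPKM) in the 6 RVM libraries against the summed FPKM of 5 serotonergic markers and against Pou4f1 (FPKM); each point is a library with its number. In both panels the libraries lie in the same order on both axes, and Htr5b spans 18.4 to 28.8 FPKM in RVM CFA and 28.1 to 50.7 FPKM in RVM saline.

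Whether the change under CFA differed between the regions was tested as the change in thalamus minus the change in RVM. Of the 6 receptor genes tested, limma called 0, 1 had an unadjusted p below 0.05, and limma-voom called 0. Of all 13738 genes 0% were called, 1560 (11.4%) had an unadjusted p below 0.05, and limma-voom called 0. Htr5b had the smallest p of the 6, with a difference of 1.53 ± 0.60 SE on the log2 scale (limma adjusted p = 0.398), which was 0.97 without thalamus saline library 2. For Htr1a, Htr1b, Htr2a, Htr2c and Htr3a the limma adjusted p was 0.555 to 0.919.

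The other genes of the serotonin system were taken from 6 lists of 62 genes. Under CFA, limma called 0 of the 54 tested in thalamus (18 with an unadjusted p below 0.05, where 21.4% of all genes had one, and 1 called by limma-voom). In RVM limma called 0 of the 58 tested (11 with an unadjusted p below 0.05, where 14.2% of all genes had one, and 0 called by limma-voom). In RVM the list of serotonin synthesis, transport and breakdown had a median log2 change of -0.11. That list also holds the transcription factor genes Fev, Lmx1b, Gata2, Gata3 and En1. Gch1, which makes a cofactor of serotonin synthesis, was at -0.44 (limma adjusted p = 0.242) and Ddc, the second enzyme of the pathway, at -0.30 (0.272). These are 2 of the 4 genes of the list with an unadjusted p below 0.05. The other 2, Qdpr and En1, named after their values were known, had positive estimates of 0.49 (limma adjusted p = 0.281) and 0.34 (0.343). Tph2 was at -0.39 (0.36), the serotonin transporter gene Slc6a4 at -0.31 (0.497) and Fev, a transcription factor of serotonergic neurons, at -0.37 (0.382). In thalamus Gch1 was at 0.59 (0.201) and Ddc at -0.47 (0.202). Median log2 changes of the 6 lists were -0.35 to 0.10 in thalamus and -0.18 to 0.13 in RVM.

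Members with the smallest p in the signalling lists were, in thalamus, Gnaq (-0.34, limma adjusted p = 0.108) and Gnai3 (0.48, 0.122) of the G protein alpha subunits, Adcy5 (-0.80, 0.195) and Adcy7 (0.61, 0.202) of the adenylyl cyclases, Itpr1 (-0.46, 0.0851) and Plcb3 (0.44, 0.198) of the phospholipase C and inositol trisphosphate receptor genes, Kcnj5 (0.63, 0.0904) and Kcnj3 (-0.52, 0.17) of the GIRK channels, and Grk3 (-0.31, 0.206) and Rgs7 (-0.96, 0.213) of the receptor regulators. In RVM they were Gnai1 (-0.27, 0.305), Gna12 (-0.12, 0.352), Adcy5 (-0.22, 0.242), Adcy8 (-0.23, 0.305), Plcb4 (-0.13, 0.359), Itpr2 (-0.21, 0.552), Kcnj9 (-0.23, 0.383), Kcnj5 (0.46, 0.386), Rgs4 (-0.26, 0.303) and Grk5 (-0.16, 0.349). In each pair of values the first is the log2 change and the second the limma adjusted p, and no member passed the threshold.

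Between the regions these lists differed much more. The list of serotonin synthesis, transport and breakdown had 12 genes tested, among them the transcription factor genes Fev, Gata2 and Gata3. Of these 12, 9 were lower in thalamus CFA than in RVM CFA (18.1% of all genes were) and 0 higher. The median log2 difference was -1.48. Between the saline groups 11 of 12 were lower in thalamus (22.7% of all genes were) and 0 higher, with a median of -1.51 where all genes had -0.02. Tph2 differed by -4.83 between the CFA groups (limma adjusted p = 0.000203) and by -5.55 between the saline groups (2.61e-05), Slc6a4 by -3.92 (0.000203) and -4.26 (2.61e-05), and Fev by -2.46 (0.000763) and -2.66 (0.000132). Slc6a4 was at 0.0306 to 0.128 FPKM in the thalamus libraries. With equal FPKM totals, 7 were lower and 1 higher between the CFA groups.

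Among the effector genes, those called were mostly higher in thalamus, beside 14.9% of all genes called higher between the CFA groups and 22.6% between the saline groups. Of 4 GIRK channel genes, 3 were higher and 0 lower in thalamus in both comparisons, Kcnj6 by 2.29 in each, Kcnj3 by 1.25 between the CFA groups and 1.80 between the saline groups, and Kcnj9 by 1.15 and 1.82 in the same order. Of 8 adenylyl cyclase genes, 3 were higher between the CFA groups and 6 between the saline groups, and 0 were lower in either, with Adcy1 at 2.35 in each. Between the CFA groups, 6 were higher with equal FPKM totals and 5 with limma-voom. Of 6 genes for phospholipase C beta and inositol trisphosphate receptors, 1 was higher and 0 lower between the CFA groups (2 and 0 under both alternatives), and 3 were higher and 1 lower between the saline groups. Itpr1, an intracellular calcium channel gene, led with 2.59 between the CFA groups and 3.18 between the saline groups.

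The G protein alpha subunits were mixed. Between the CFA groups 2 of 12 were higher in thalamus, among them Gnao1 (1.03), and 3 lower, among them Gna12 (-0.70), and between the saline groups 4 of 11 were higher, with Gnao1 at 1.46, and 3 lower, with Gna12 at -0.85. With equal FPKM totals the split between the CFA groups was 5 higher and 1 lower. Of 16 receptor regulators, 4 were higher and 1 lower between the CFA groups, and 11 higher and 1 lower between the saline groups, where equal FPKM totals gave 10 higher and 1 lower between the CFA groups. Rgs16, which speeds the shutting off of Gi/o and Gq signals, was at 3.08 between the CFA groups and 4.06 between the saline groups. The gene that was lower in both was S100a10, whose product binds the receptor encoded by Htr1b, at -1.79 and -2.13. All values in these lists are log2 differences, thalamus minus RVM, with a limma adjusted p below 0.05.

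For the 8 receptor genes that averaged 1 FPKM or more, the protein-coding genes with the most similar profile were sought among 12289 genes, by the root mean square difference of scaled log2(FPKM + 1) values over the 12 libraries. Htr5b was closest to Plcl1 (0.130), Tpbgl (0.165) and Spart (0.187), and Htr2a to Sv2c (0.156), Rps4y2 (0.165) and S100b (0.180). Both sets follow the regional difference that these receptor genes show. Next in closeness were Htr1d with Mrps28 (0.229), Htr2c with Kdm6a (0.283), Htr1a with Lats2 (0.284) and Htr4 with Car3 (0.297). Htr1b with Tceal3 (0.322) was less close, and Htr3a with Hsd11b1 (0.518) had the most distant nearest gene of the 8. The distance is a description of 12 libraries, in which region, library and depth are shared.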

How the data were processed

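Total RNA of rat thalamus and RVM was extracted with TRIzol and sequenced from Illumina TruSeq libraries, per the labels' protocols. The authors deposited FPKM values with gene lengths and coordinates in a table, per the file headers. No source used here gives the aligner, counting tool, strand setting, genome build or annotation. FPKM multiplied by gene length gave whole multiples of a step in each library for 100% of values (tolerance 0.01), taken as reads. The divisor the authors used was 0.9335 to 1.168 times the recovered reads, so the FPKM carry a further scaling between libraries.

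Limma 3.58.1 (R 4.3.3; empirical Bayes, trend) was fitted to log2(FPKM + 1) of genes averaging 1 FPKM or more in the 6 libraries compared (in each region for the difference of the CFA effects), with Benjamini-Hochberg adjustment over all genes tested and a threshold of 0.05. Libraries were not paired by number.

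All receptor genes were named. In the other lists up to 4 called members with the smallest p, or the 2 with the smallest p where none was called, could be named, with Tph2, Slc6a4 and Fev, and the 3 closest genes by profile. Of 179 distinct symbols in the lists 177 were in the table. Members and lists were chosen with earlier results of these data known. Alternatives were a pseudocount of 0.1, no filter, equal FPKM totals, median-of-ratios scaling, limma-voom on recovered reads, the replicate block, a single model of all 12 libraries, and left-out libraries. Promoters were read from RefSeq tables (GRCr8).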

Additional observations from a re-analysis of the deposited data

How the results depend on the processing

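Of 503 recomputed log2 values of the receptor genes, 462 kept their direction and their side of the threshold, 9 lost a call, 7 gained one and 25 changed sign, and none of the values called in the report changed sign. Those that changed sign were uncalled. In thalamus under CFA they were Htr2a at 0.0044 with equal FPKM totals, 0.0027 with limma-voom, 0.109 without CFA libraries 1 and 2 and -0.24 to 0.11 with single libraries left out, Htr1a at -0.20 without CFA libraries 1 and 2, and Htr3a at -0.18 to 0.18 with single libraries left out. In RVM under CFA they were Htr2a at 0.034 with limma-voom and, with single libraries left out, Htr2a at -0.027 to 0.0075 and Htr1a at -0.12 to 0.00080. Between the saline groups Htr3a was at -0.12 to 0.30 with single libraries left out, and between the CFA groups Htr1b at -0.12 to 0.61, with Htr1a at -0.55 without thalamus CFA libraries 1 and 2. In the difference of the CFA effects, Htr1b and Htr2a were at 0.024 and 0.011 with equal FPKM totals, at 0.12 and 0.12 without thalamus CFA libraries 1 and 2, where Htr1a was at -0.13, and at -0.42 to 0.31 and -0.23 to 0.12 with single libraries left out. The cause was not tested.

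Counts of all genes called moved more. In thalamus under CFA 605 genes were called, against 1338 with the replicate block (755 higher, 583 lower), 1932 (1100 and 832) in a single model of all 12 libraries, 66 without CFA libraries 1 and 2 (1 CFA library is then left, assumed to vary like the saline libraries, so fewer calls follow from the smaller design) and 309 to 547 with single libraries left out (309 without saline library 3, 321 without saline library 2, 394 without CFA library 1). In RVM under CFA 0 were called, 1 with no filter, and 0 to 484 with single libraries left out, 484 without CFA library 2. In the difference of the CFA effects 0 were called, 11 with no filter and 0 to 15 with single libraries left out, 15 without thalamus saline library 1. Between the CFA groups 4880 were called and 2906 to 5418 with single libraries left out, the lowest counts being 2906, 2909 and 2937 without RVM CFA libraries 1, 2 and 3. With single libraries left out, the 4 receptor calls became 2 to 5 between the saline groups and 2 to 7 between the CFA groups, and 0 under CFA in every setting. The median of all genes moved from -0.02 to 0.14 between the saline groups and from -0.002 to 0.30 between the CFA groups with equal FPKM totals, and to 0.21 between the CFA groups with limma-voom. Libraries of the same number had correlated deviations of 0.063 to 0.364 in thalamus and -0.028 to -0.005 in RVM. Between thalamus and RVM the correlations were -0.014 to 0.106 for the saline groups and -0.037 to 0.203 for the CFA groups. The number is therefore not shown to pair the libraries. The replicate block ended the call of Htr1b between the saline groups (adjusted p = 0.0695) and changed no other receptor call. The single model also ended it (0.409) and added Htr1d between the CFA groups (0.0152).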
